A study of Mus musculus with 20 samples.

Results

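The contractile genes of smooth muscle were followed in bulk RNA from colon sections of mice. The set was chosen by name and held 34 genes, and all 34 had a row both in the chow table of 56748 genes and in the high fat diet (HFD) table of 31184 genes. The mice fell into 5 groups of 4, which gave 20 libraries. On standard chow the groups were Pcca Vill mice, in which Villin-Cre removes Pcca from the gut epithelium, Pcca Alb mice, in which Albumin-Cre removes it from the liver, and Pcca ff mice, floxed littermates of the Vill mice that served as controls. The labels do not say whether the Alb mice came from the same litters. These animals were killed at 9 weeks of age. On HFD the groups were Pcca Vill and Pcca ff. The HFD animals were males, killed at 18 weeks after 12 weeks on food that drew 60% of its calories from fat. All 5 groups were fasted for 4 hours, and the labels name no sex for the chow groups. Pcca encodes a subunit of propionyl-CoA carboxylase, an enzyme of propionate breakdown. Villin-Cre is known for activity in the gut epithelium and Albumin-Cre in hepatocytes. Neither is known for activity in smooth muscle, the cell type for which these 34 genes were chosen. Some of the set, such as Actn1, Vcl and Dmd, are known from other cell types as well. Diet, age and the stated sex changed together, so levels on chow and on HFD were not tested against each other and their causes cannot be told apart.

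Smooth muscle forms the muscle layers of the colon wall and also lies in the walls of its arteries. Its cells shorten when calcium entering through channels activates myosin light chain kinase, which phosphorylates the light chain of myosin so that thick filaments pull on thin filaments of actin and tropomyosin. Desmin filaments and dense bodies carry the pull to the cell membrane. Myocardin, a coactivator that works through serum response factor, switches on many of these genes through short DNA sites called CArG boxes. In RNA from a whole piece of colon, the summed level of such genes was taken as a measure of the muscle share. Reads from other cell types can add to it, and fewer muscle cells and less RNA per muscle cell cannot be told apart.

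CArG boxes are the sites through which myocardin acts, so the promoters shown are the 3 that held a CArG box (Myl9, Vcl and Dmd) and that of Acta2, a leading actin gene with CArG-like sites. Each sequence holds the 250 bases before the start site, 5′ to 3′, from the RefSeq table of build GRCm38.p6. Capitals mark CArG boxes, whose core of 6 bases between CC and GG holds only A and T, and CArG-like sites, whose core holds a single G or C.
Acta2 (chr19:34255374-34255623, minus strand): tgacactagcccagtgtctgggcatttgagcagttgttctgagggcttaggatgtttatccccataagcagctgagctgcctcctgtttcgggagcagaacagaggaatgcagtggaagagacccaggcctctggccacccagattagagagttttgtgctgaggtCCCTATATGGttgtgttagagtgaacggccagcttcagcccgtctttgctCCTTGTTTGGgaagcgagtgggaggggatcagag
Myl9 (chr2:156775214-156775463, plus strand): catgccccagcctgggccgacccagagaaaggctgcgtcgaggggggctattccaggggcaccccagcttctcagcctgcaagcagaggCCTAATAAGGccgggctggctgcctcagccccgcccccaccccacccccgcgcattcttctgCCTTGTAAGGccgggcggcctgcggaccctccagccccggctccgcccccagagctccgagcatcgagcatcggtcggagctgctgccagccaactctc
Vcl (chr14:20929148-20929397, plus strand): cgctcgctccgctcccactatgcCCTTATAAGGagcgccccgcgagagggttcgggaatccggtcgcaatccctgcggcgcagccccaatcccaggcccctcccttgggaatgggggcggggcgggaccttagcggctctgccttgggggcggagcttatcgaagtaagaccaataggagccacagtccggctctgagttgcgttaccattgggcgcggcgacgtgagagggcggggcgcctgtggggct
Dmd (chrX:82948620-82948869, plus strand): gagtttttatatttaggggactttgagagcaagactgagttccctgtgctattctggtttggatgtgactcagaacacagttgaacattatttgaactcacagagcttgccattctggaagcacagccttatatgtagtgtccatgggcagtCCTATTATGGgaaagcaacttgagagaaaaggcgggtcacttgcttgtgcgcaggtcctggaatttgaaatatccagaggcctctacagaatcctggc
Acta2 held 2 CArG-like sites, which began 84 and 34 bases before the start. Myl9 held a CArG box that began 161 bases before the start and a CArG-like site that began 99 bases before it. Vcl and Dmd each held 1 CArG box, which began 227 and 98 bases before their starts. The table had promoters for 27 of the 34 members, 36 promoters in all, each of them 300 bases long with 50 bases after the start. A CArG box lay in 3 of these 36 promoters (8.33%) and in 1.63% of all 32851 promoters of the table. Sites of either kind lay in 10 of the 36 (27.8%), which belonged to 8 genes, and in 9.98% of all promoters. Besides the 4 genes above, these were Jph2, Cacna1c, Hspb6 and Synm. The motif reads nearly the same on both strands, so 1 scan covered both. No promoter was at hand for Myh11, Actg2, Tagln, Myocd, Itga7, Nexn and Mir143.

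Libraries held 27857056 to 40385785 counted reads on chow and 16881567 to 24423757 on HFD. Levels are given as CPM, counts scaled to the counted reads of the library. Pcca itself averaged 29.96 ± 3.69 CPM in Vill colons, 46.05 ± 8.88 CPM in Alb colons and 47.54 ± 9.75 CPM in ff colons on chow (SD, n = 4 each), and every Vill library (26.4 to 34.7 CPM) lay below every ff library (37.4 to 58.8 CPM). On HFD it had 33.3, 37.4, 33.8 and 30.7 CPM in the Vill libraries 1 to 4 and 31.45, 56.3, 32.9 and 57.4 CPM in the ff libraries. The HFD libraries labelled ff 1 and 3 thus had Pcca within the Vill range, against their label, and only the libraries labelled ff 2 and 4 were above every Vill library. A colon section also holds cells that Villin-Cre does not reach. Beyond calling the ff mice littermates of the Vill mice, the labels do not say which samples shared a litter or an extraction day, nor which part of the colon was taken.

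The 34 genes took up between 0.247% and 2.18% of all counted reads. On chow they held 0.844, 0.797, 0.299 and 1.26% of the reads in the Vill libraries 1 to 4, 1.81, 0.979, 2.18 and 1.06% in the Alb libraries and 1.10, 1.54, 0.870 and 0.915% in the ff libraries. The means were 0.801 ± 0.394% in Vill, 1.51 ± 0.582% in Alb and 1.11 ± 0.306% in ff (SD, n = 4 each). Vill library 3 stood lowest by far, Alb libraries 3 and 1 stood highest, and the 3 groups overlapped. On HFD the share was 1.05, 0.891, 0.514 and 0.247% in the Vill libraries and 1.10, 0.479, 0.915 and 0.566% in the ff libraries, with means of 0.676 ± 0.364% in Vill and 0.764 ± 0.292% in ff. Vill library 4 was the lowest there, and the groups overlapped again. The highest library had 7.28 times the share of the lowest on chow and 4.44 times on HFD.

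**Figure D1:**
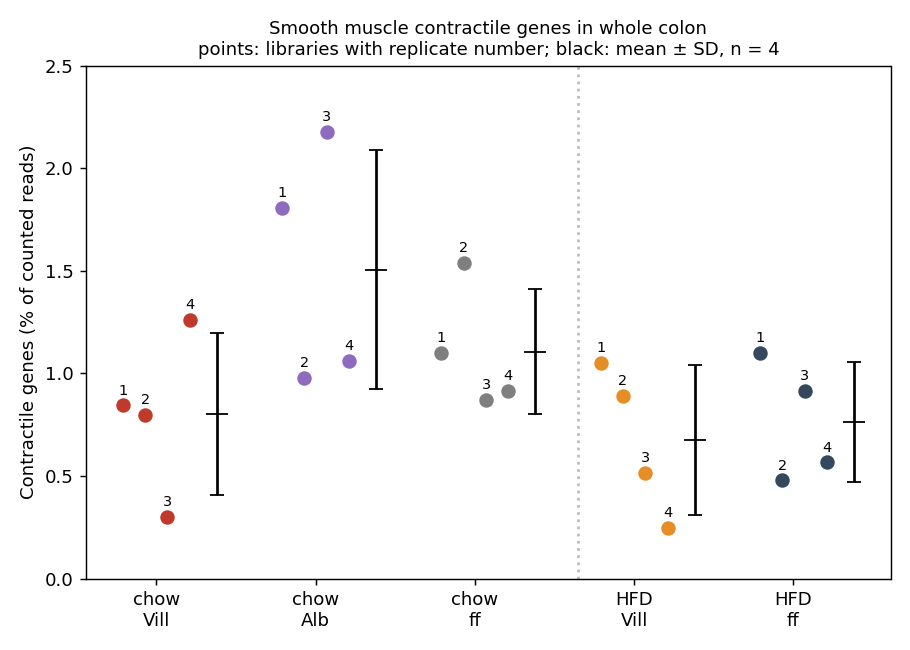
Share of all counted reads that fell on the 34 contractile genes, in percent (y axis), for every library of the 5 groups (x axis). Coloured points are libraries with their replicate number, and the black bar is the mean ± SD of 4. Chow Vill library 3 (0.299%) and HFD Vill library 4 (0.247%) lie lowest, chow Alb library 3 (2.18%) lies highest, and groups of the same diet overlap.

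The filament proteins gave most of these reads. Myh11, the heavy chain of smooth muscle myosin, alone held 13.6% of the reads of the set, Tpm1, a tropomyosin, 9.51%, and Flna, the actin cross-linker filamin A, 9%. Levels between genes are compared only per kilobase of the transcript length in the deposited tables. On that scale the highest members in chow ff colons were Actg2, the enteric gamma actin, at 584 ± 239 CPM per kilobase, Myl9, the regulatory light chain of myosin, at 412 ± 142, and Acta2, the alpha actin of smooth muscle, at 411 ± 101 (SD, n = 4 each). Des (desmin) followed at 285 ± 91.5, Csrp1, a cysteine-rich LIM protein, at 265 ± 42.2, Cnn1, the actin-binding calponin, at 246 ± 59.9, and Myh11 at 189 ± 64.5. The same 7 genes led in chow Vill and chow Alb colons, in the same order of means. The order of close neighbours was not resolved: with Mir143 set aside, 30 of 32 neighbouring pairs in chow ff, 30 of 32 in chow Alb and 32 of 32 in chow Vill had overlapping libraries. Myl9 led in HFD ff colons at 309 ± 176 CPM per kilobase and Actg2 in HFD Vill colons at 284 ± 177.

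**Figure D2:**
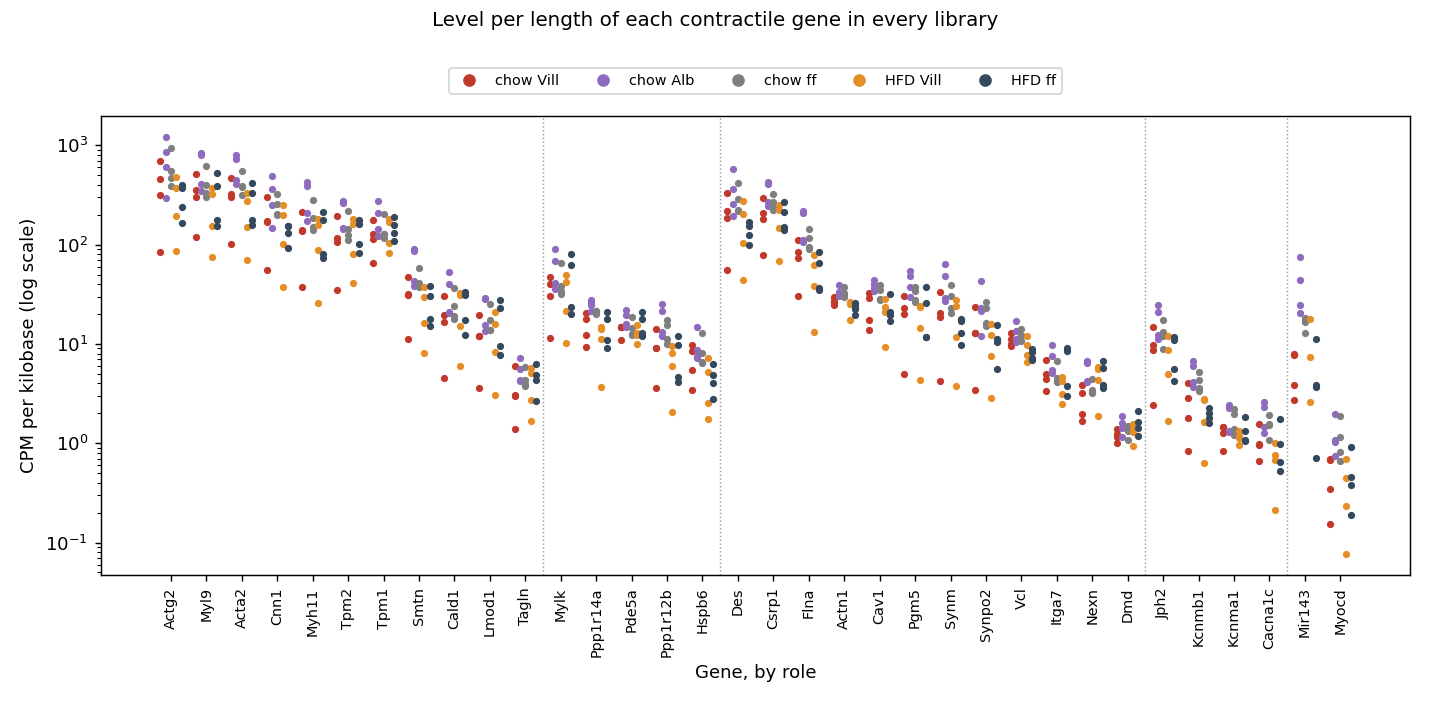
Level of each of the 34 genes in CPM per kilobase of transcript (y axis, log scale), with genes grouped by role (x axis, dotted lines between roles) and 1 point per library, coloured by group. Actg2, Myl9 and Acta2 lie at the top and Myocd and Dmd near the bottom, and Mir143, a gene of 63 bases, is on this scale only for completeness.

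Below the leading filament genes came Tpm2 and Tpm1, with 148 ± 47.2 and 144 ± 39.1 CPM per kilobase in chow ff colons, and Flna with 111 ± 25.1. Smtn (smoothelin) had 43.9 ± 10.0, Cald1 (caldesmon, an inhibitor of the actin-activated myosin ATPase) 24.4 ± 8.52 and Lmod1, a nucleator of actin filaments, 17.6 ± 5.39. Mylk, the myosin light chain kinase, reached 42.7 ± 15.7. Ppp1r14a, an inhibitor of the phosphatase that removes the phosphate from the light chain, had 20.7 ± 0.720, and Ppp1r12b, a targeting subunit of that phosphatase, 13.5 ± 3.50. Pde5a, which degrades the relaxing messenger cyclic GMP, had 14.5 ± 2.87 and the small heat shock protein gene Hspb6 8.52 ± 3.08. Mylk thus stood level with Smtn, and the other 4 stood lower.

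Among genes of the filament anchors and the membrane, Actn1, the actin cross-linker alpha-actinin, had 32.8 ± 3.40 CPM per kilobase in chow ff colons and Cav1, the coat protein of caveolae, 32.3 ± 5.54. Pgm5, a protein of adherens-type junctions, had 31.5 ± 5.46, the intermediate filament gene Synm 28.2 ± 8.24 and Synpo2, an actin-binding protein, 20.3 ± 5.46. Vcl (vinculin) had 12.3 ± 1.32, Itga7, a laminin-binding integrin chain, 4.95 ± 1.22, Nexn (nexilin) 3.59 ± 0.572 and Dmd (dystrophin) 1.31 ± 0.170. The channel genes were low: 4.14 ± 0.834 for Kcnmb1, the beta subunit of the large-conductance potassium channel, 1.69 ± 0.464 for its pore-forming subunit Kcnma1 and 1.52 ± 0.344 for Cacna1c, the pore of the L-type calcium channel. Jph2, which ties the sarcoplasmic reticulum to the cell membrane and was grouped with the channel genes, had 12.9 ± 3.58. Myocd (myocardin) was the lowest member, at 1.13 ± 0.537.

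Tagln, which encodes the actin-binding protein SM22 alpha, was low for a filament gene, at 4.48 ± 0.962 CPM per kilobase in chow ff colons, where Acta2 had 411 ± 101. Its reads numbered 3404 over the 12 chow libraries. In the deposited tables Tagln (chromosome 9, bases 45840917 to 45847356, minus strand, mm39) is overlapped on the plus strand by the long noncoding gene Gm48529 over 3627 of its 6440 bases and by Pcsk7 over 108 bases. Gm48529 had 1752 chow reads. Of the 34 members, 21 overlap another gene that had reads on chow, and 19 overlap one on the opposite strand. Whether counting used the strand is not given in the sources used here, so reads from such overlaps cannot be told apart, and the part of the overlap in the low Tagln level was not tested. Tagln is therefore uncertain as a level.

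From library to library the members moved together. On chow, Vill library 3 was the lowest of the 12 libraries for 33 of 34 members, the exception being Dmd, and Alb library 3 was the highest for 27 and Alb library 1 for the other 7. On HFD, Vill library 4 was the lowest of 8 for all 34 members, and the highest was Vill library 1 for 12, the library labelled ff 1 for 21 and the library labelled ff 3 for 1. Relative to the median of the other 11 chow libraries, the 34 levels in Vill library 3 ranged from 0.146 times (Synm) to 0.914 times (Dmd), with a median of 0.277 times. In HFD Vill library 4 they had a median of 0.26 times the median of the other 7 HFD libraries, with Mir143 at 0 reads and Kcnma1 at 0.8 times. In chow Alb library 3 all 34 were above the median of the other libraries, between 1.23 times (Dmd) and 2.68 times (Synpo2).

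**Figure D3:**
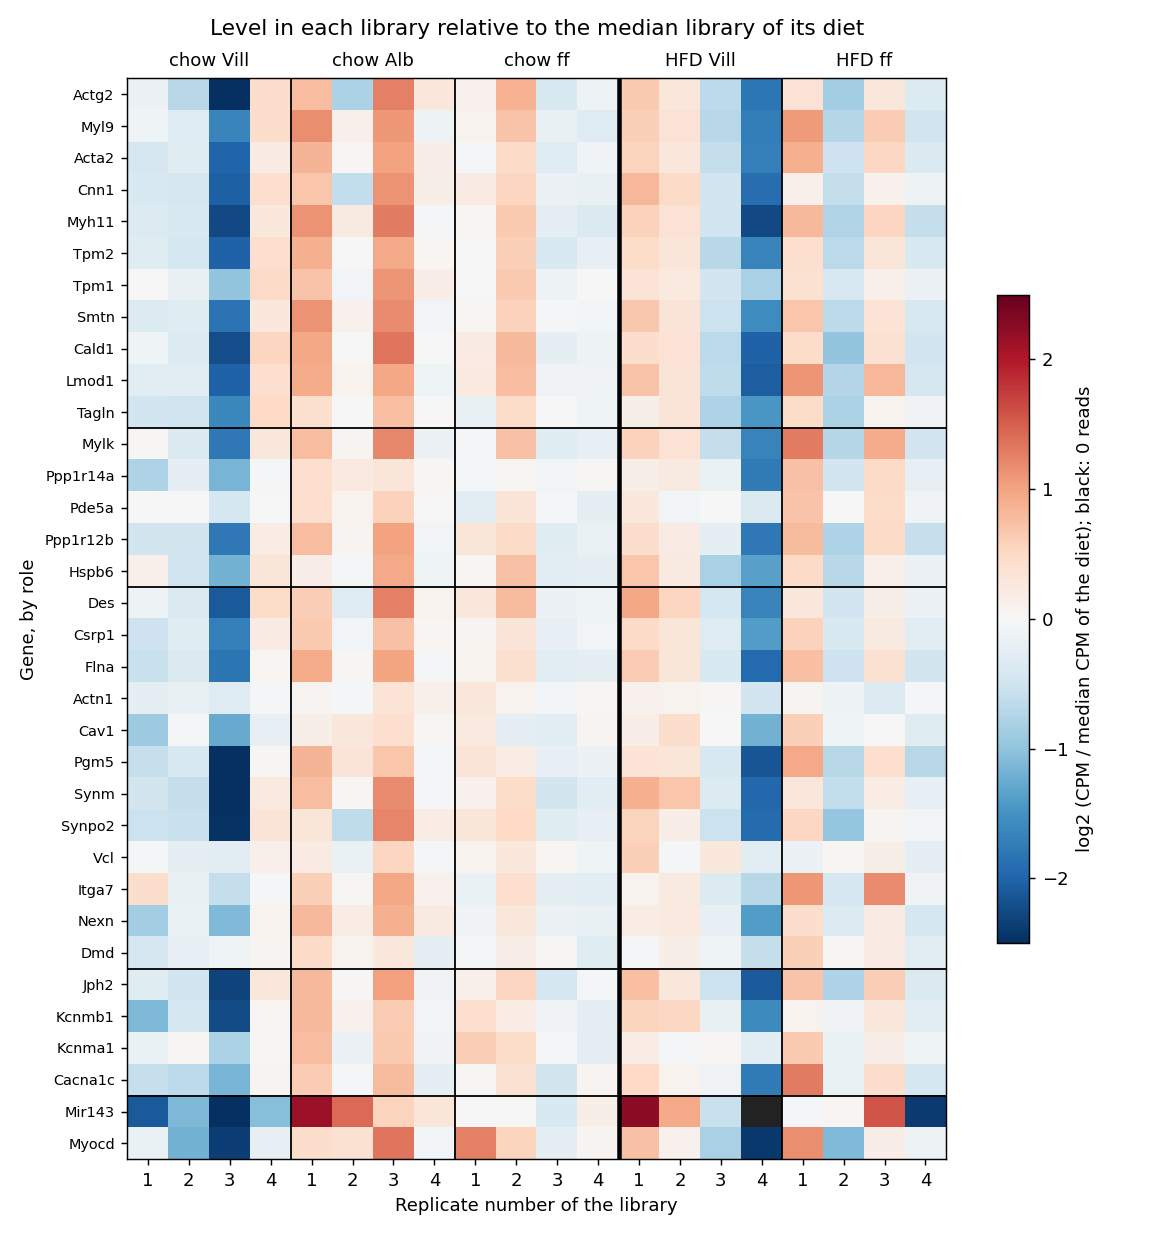
Level of each gene (rows, grouped by role) in each library (columns, with replicate numbers) as log2 of its CPM over the median CPM of the libraries of the same diet. Chow Vill library 3 and HFD Vill library 4 are low down nearly the whole column, Alb libraries 1 and 3 are high, and Actn1, Vcl, Pde5a and Dmd stay near 0. The black cell has 0 reads.

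The spread within groups was wide for most members. The SD of log2 CPM within chow groups had a median of 0.60 over the 34 members and of 0.31 over the 19701 genes tested, and 29 of 34 members lay above the median of all genes. On HFD it was 0.85 over 33 members, against 0.29 over 17715 genes, and 32 of 33 lay above. Actg2 varied 14.5-fold between its highest and lowest chow library, Synm 15.0-fold and Synpo2 12.8-fold. On chow 4 members kept within a 2.1-fold range, namely Actn1 (1.58-fold), Vcl (1.78-fold), Dmd (1.87-fold) and Pde5a (2.03-fold), while 22 of 34 spanned 5-fold or more.

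Per-library values show this contrast. Myh11 (chromosome 16, bases 14012399 to 14109236, minus strand, mm39) had 1074, 1034, 282 and 1625 CPM in the chow Vill libraries 1 to 4, 2947, 1575, 3267 and 1305 CPM in Alb and 1403, 2135, 1139 and 1058 CPM in ff. Acta2 (chromosome 19, bases 34218490 to 34232990, minus strand) had 656, 717, 220.4 and 1017 CPM in Vill, 1581, 901, 1769.8 and 983 CPM in Alb and 859, 1219, 702 and 827 CPM in ff. Actg2 (chromosome 6, bases 83489887 to 83513247, minus strand) had 716, 489.9, 130.2 and 1077 CPM in Vill, 1344, 461, 1889 and 946 CPM in Alb and 855, 1447, 606 and 728 CPM in ff. For these 3 genes Vill library 3 was far below every other library, Alb libraries 1 and 3 were among the highest, and each group overlapped both others. Actn1 instead had 147, 150.3, 137 and 165 CPM in Vill, 179, 166, 217 and 185 CPM in Alb and 208, 180.3, 163 and 175 CPM in ff, with Vill library 3 close to the rest of its group. Dmd had 23.9, 27.7, 29.6 and 33.5 CPM in Vill, 44.6, 33.6, 38.3 and 27.3 CPM in Alb and 31.3, 35.6, 32.4 and 25.9 CPM in ff, and Vill library 3 was not its lowest library. On HFD Myh11 had 1380.4, 1194, 669 and 195 CPM in Vill and 1632, 555, 1346 and 613 CPM in ff. Acta2 had 732, 611, 329 and 153 CPM in HFD Vill and 919, 347, 719 and 388 CPM in HFD ff, and Actg2 had 753, 577, 301 and 136 CPM in HFD Vill and 614, 259.8, 581 and 376 CPM in HFD ff. In these 3 genes Vill libraries 1 and 2 and the libraries labelled ff 1 and 3 were high, the other 4 were low, and the groups overlapped.

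Markers of other cell types of the colon were measured beside them, and some moved with the contractile genes while others did not. The summed level of 14 genes of enteric neurons and glia, which lie between the muscle layers, was 125, 132, 49.2 and 249 CPM in the chow Vill libraries 1 to 4, 386, 174, 319.6 and 172 CPM in Alb and 162, 256, 126 and 149 CPM in ff, so that it too was lowest in Vill library 3 and highest in Alb libraries 1 and 3. On HFD it was 194, 220.5, 120.2 and 23.4 CPM in Vill and 360.4, 127, 236 and 130.2 CPM in ff, again lowest in Vill library 4. Every one of the 14 genes had reads in every library. The 10 genes of pericytes and vascular smooth muscle summed to 369, 247, 103 and 423 CPM in the chow Vill libraries, 604, 244, 941 and 281 CPM in Alb and 314, 696, 247 and 245 CPM in ff, and to 377, 295, 143 and 82.2 CPM in Vill and 891, 156, 548 and 200.2 CPM in ff on HFD. On chow this sum too was lowest in Vill library 3 and highest in Alb library 3, with ff library 2 next, and on HFD it was lowest in Vill library 4 and highest in the library labelled ff 1. Most of the sum in the high libraries was Rgs5, with 704 CPM in chow Alb library 3, 521 CPM in chow ff library 2 and 725 CPM in HFD ff library 1. Not every gene of the list followed, and Pdgfrb was highest on chow in Vill library 3, at 24.3 CPM. The 8 genes of interstitial cells of Cajal, the pacemaker cells of gut muscle, went another way, at 272, 859, 1051 and 551 CPM in the chow Vill libraries, 709, 1129, 497 and 823 CPM in Alb and 683, 394, 906 and 848 CPM in ff, and at 616, 587, 1002 and 557 CPM in Vill and 310.0, 901, 233 and 579 CPM in ff on HFD. Chow Vill library 3 was second highest there, and HFD Vill library 4 was not lowest. Most of the sum in chow Vill library 3 was Thbs4 and Ano1, at 543 and 395 CPM. Etv1 and Ddr2 of the same list were instead lowest in chow Vill library 3 (6.79 and 17.8 CPM) and in HFD Vill library 4 (4.46 and 8.19 CPM). The 12 genes of fibroblasts summed to 805, 1168, 868 and 1026 CPM in the chow Vill libraries, 947, 1091, 1545 and 1429 CPM in Alb and 1270.0, 1218, 949.9 and 1291 CPM in ff, and to 674, 808, 623 and 354 CPM in Vill and 873, 650.1, 707 and 487 CPM in ff on HFD, where Vill library 4 was lowest. The part of these cell types in the levels of the contractile genes was not tested. The 13 genes of colon epithelium summed to 18690 CPM (library 3) to 38170 CPM (library 1) in chow Vill. They summed to 20440 to 32590 CPM in Alb and 20580 to 31080 CPM in ff. The sum was thus lowest in Vill library 3, but the genes of the list did not move as one. Muc2 had 11990, 4973, 2787 and 6944 CPM in the chow Vill libraries 1 to 4. Krt20 was lowest on chow in Vill library 3, at 509 CPM, whereas Cdx1 was highest on chow there, at 349 CPM. On HFD the sum in Vill library 4, at 22950 CPM, was not the lowest. Of 13 genes of skeletal and cardiac muscle, Myh4 was at 0 reads throughout the chow libraries, and the list summed to 9.31 to 21.6 CPM in Vill, 12.6 to 25.1 CPM in Alb and 13.4 to 29.8 CPM in ff.

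Colons of Vill mice were compared with those of their ff littermates on chow, where the deletion lies in the neighbouring epithelium. The point estimates of all 34 members were lower in Vill, but no member changed at an adjusted p under 0.05 in edgeR's quasi-likelihood test, and the smallest adjusted p was 0.9999. The median log2 fold change (Vill over ff) was -0.48 over the members, between -1.54 (Mir143) and -0.018 (Itga7), and 0.0034 over all 19701 genes tested, of which 49.2% lay below 0. Over all genes 0.00508% were called. At an unadjusted p under 0.05 stood 2 of 34 members, Mir143 and Myocd, both lower, against 1.1% of all genes that were lower at that p. DESeq2 called 0 members and 0.0116% of all genes, and limma-voom 0 members and 0.00508% of all genes. The members shared the movement from library to library described above, so their estimates are not independent of each other. Without Vill library 3 the median was -0.20 and 2 members had estimates above 0, without ff library 2 it was -0.28, and without Vill library 4 it was -0.86 with 12 members at an unadjusted p under 0.05.

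By role, the median log2 fold change in chow Vill over ff was -0.45 for the 11 genes of thick and thin filaments, -0.39 for the 5 genes of myosin phosphorylation and relaxation, -0.48 for the 12 genes of filament anchors and membrane, -0.53 for the 4 genes of the channel group with Jph2 and -1.40 for Myocd and Mir143. Mir143 (chromosome 18, bases 61782267 to 61782329, minus strand, mm39), the gene of microRNA 143, had 8, 19, 7 and 14 reads in Vill and 38, 35, 27 and 40 reads in ff. These are 0.351 ± 0.167 CPM in Vill and 1.02 ± 0.152 CPM in ff, a log2 fold change of -1.54 (SE 0.48, adjusted p = 0.9999) by edgeR, and every Vill library lay below every ff library. It was the only member whose groups did not overlap, and 0.726% of all genes were lower without overlap. Myocd (chromosome 11, bases 65067387 to 65160815, minus strand) had 4.50, 2.21, 0.990 and 4.34 CPM in Vill and 12.0, 7.37, 4.25 and 5.29 CPM in ff, a log2 fold change of -1.26 (SE 0.52, adjusted p = 0.9999). All Vill libraries were low for Myocd, ff library 1 was high, and the groups overlapped narrowly.

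The other 6 members with the smallest p in chow Vill against ff were Actn1, Ppp1r14a, Cav1, Kcnmb1, Cacna1c and Pgm5. Actn1 had a log2 fold change of -0.28 (SE 0.13, adjusted p = 0.9999) in edgeR, on the per-library values given above. Ppp1r14a had 16.8, 24.5, 12.7 and 27.9 CPM in Vill and 27.8, 29.2, 27.3 and 29.2 CPM in ff, with a log2 fold change of -0.47 (SE 0.22, adjusted p = 0.9999). Its ff libraries were close together, Vill libraries 1 and 3 were far below them, and Vill library 4 lay among them. Cav1 had 60.6, 111, 47.5 and 98.9 CPM in Vill and 134, 96.7, 94.5 and 119.8 CPM in ff, with a log2 fold change of -0.48 (SE 0.25, adjusted p = 0.9999). Kcnmb1 had 7.50, 12.0, 3.47 and 16.9 CPM in Vill and 21.8, 18.4, 15.3 and 14.0 CPM in ff, with a log2 fold change of -0.79 (SE 0.41, adjusted p = 0.9999). For both, Vill libraries 1 and 3 were lowest and the groups overlapped. Cacna1c had 21.7, 20.8, 14.6 and 34.03 CPM in Vill and 33.1, 42.2, 23.8 and 34.2 CPM in ff, with a log2 fold change of -0.54 (SE 0.32, adjusted p = 0.9999). Pgm5 had 72.9, 83.4, 18.1 and 111 CPM in Vill and 136, 124, 95.1 and 99.1 CPM in ff, with a log2 fold change of -0.66 (SE 0.43, adjusted p = 0.9999). In these 2 genes only Vill library 4 reached above the lowest ff libraries.

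**Figure D4:**
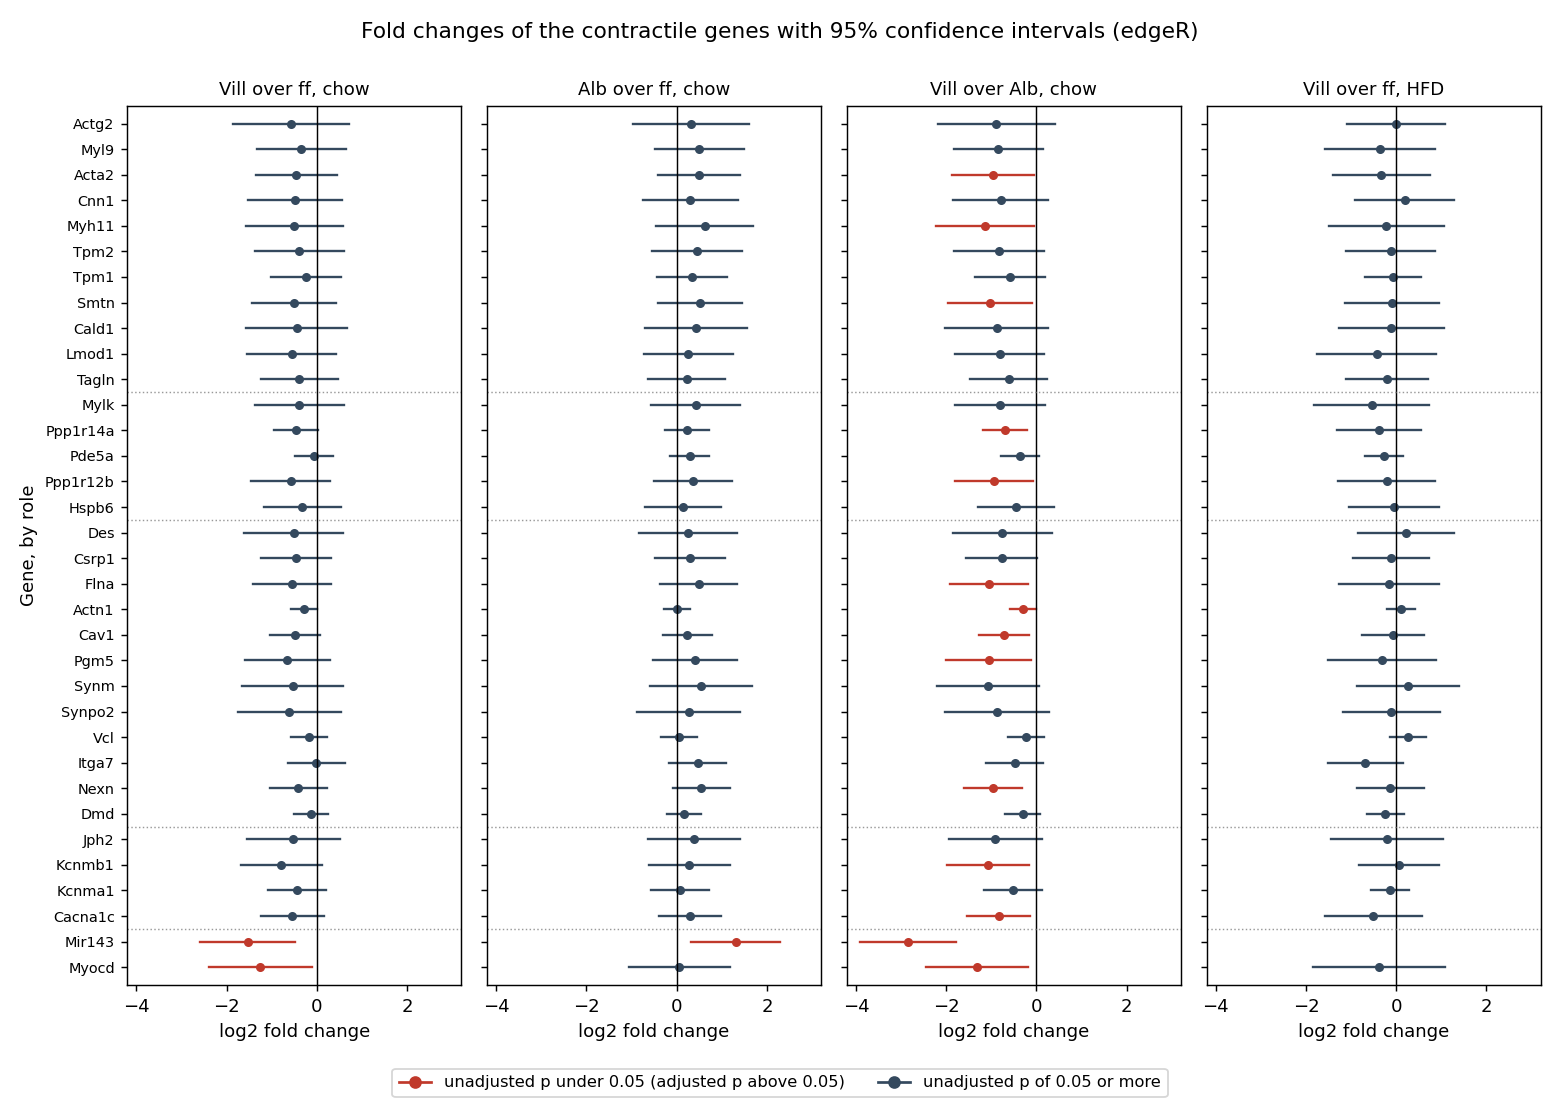
Log2 fold change of each gene (x axis) with its 95% confidence interval from edgeR, for the 4 comparisons (panels) and with genes by role (y axis). Red marks an unadjusted p under 0.05, which no member kept after adjustment over all genes. All 34 points lie below 0 for chow Vill over ff and for Vill over Alb, above 0 for Alb over ff, and on both sides for HFD Vill over ff, where Mir143 had too few reads for a test.

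Alb mice, whose deletion is in the liver, were set against the same ff colons. The point estimates of all 34 members were higher in Alb, with a median log2 fold change of 0.31 against 0.00045 over all genes, of which 50.1% lay above 0. No member changed at an adjusted p under 0.05 in edgeR, where 0% of all genes were called. DESeq2 called 0 members and 0.0116% of all genes, and limma-voom 0 members and 0% of all genes. Only Mir143 had an unadjusted p under 0.05, against 1.74% of all genes that were higher at that p. Without Alb library 3 the median was 0.14 and 9 members had estimates below 0, and without ff library 2 it was 0.52. The groups did not overlap for 2 members, Mir143 and Ppp1r14a, against 1.66% of all genes that were higher without overlap. Since both comparisons use the same ff libraries, their values are given side by side and not as support for each other.

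Mir143 had 134, 106, 43 and 40 reads in the Alb libraries 1 to 4 and 38, 35, 27 and 40 reads in ff, which gave 2.58 ± 1.56 CPM in Alb and a log2 fold change of 1.31 (SE 0.45, adjusted p = 0.990) by edgeR. Alb libraries 1 and 2 were high and Alb library 4, the lowest of its group in CPM, was just above the highest ff library. Nexn had 24.5, 15.8, 25.8 and 16.2 CPM in Alb and 13.1, 17.0, 12.6 and 12.2 CPM in ff, with a log2 fold change of 0.55 (SE 0.29, adjusted p = 0.990). Itga7 had 61.9, 41.7, 80.2 and 44.1 CPM in Alb and 36.8, 55.0, 35.1 and 34.1 CPM in ff, with a log2 fold change of 0.46 (SE 0.29, adjusted p = 0.990). Both were highest in Alb library 3, and ff library 2 reached into the Alb range. Pde5a had 194, 155, 218 and 147 CPM in Alb and 122, 183, 144 and 123 CPM in ff, with a log2 fold change of 0.29 (SE 0.19, adjusted p = 0.990). Myh11 averaged 2273 ± 977 CPM in Alb and 1434 ± 490.0 CPM in ff, with a log2 fold change of 0.63 (SE 0.49, adjusted p = 0.990). Flna had 1947, 1047, 2044 and 1010.1 CPM in Alb and 1096, 1363, 847 and 885 CPM in ff, with a log2 fold change of 0.49 (SE 0.39, adjusted p = 0.990). These 3 genes were higher in Alb libraries 1 and 3 and overlapped with ff in Alb libraries 2 and 4. Smtn had 377, 187, 396 and 167 CPM in Alb and 180.2, 257, 167 and 165 CPM in ff, with a log2 fold change of 0.51 (SE 0.43, adjusted p = 0.990), and Acta2 a log2 fold change of 0.50 (SE 0.41, adjusted p = 0.990).

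The widest gap between chow groups lay between the 2 knockouts. All 34 members had lower estimates in Vill than in Alb, with a median log2 fold change of -0.84, against 0.019 over all genes, of which 47.2% lay below 0. No member changed at an adjusted p under 0.05 in edgeR, which called 0.00508% of all genes, nor in limma-voom, which called the same 0.00508%. DESeq2 called 1 member, Mir143, and 0.298% of all genes. At an unadjusted p under 0.05 stood 14 of 34 members, all lower in Vill, against 4.89% of all genes that were lower at that p. That count was 29 without Vill library 4, but 8 without Vill library 1, 7 without Vill library 2, 7 without Vill library 3, 5 without Alb library 1 and 4 without Alb library 3. It was 8 when only these 2 groups entered the fit and 9 with the replicate number as a block. The groups did not overlap for 7 members, namely Mir143, Nexn, Ppp1r14a, Cav1, Myocd, Actn1 and Pde5a, against 2.54% of all genes that were lower without overlap.

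Mir143 had 8, 19, 7 and 14 reads in Vill and 134, 106, 43 and 40 reads in Alb, a log2 fold change of -2.84 (SE 0.49, adjusted p = 0.246) by edgeR. Its adjusted p was 3.55e-05 in DESeq2 and 0.396 in limma-voom, and over the alternatives tried its log2 fold change stayed between -3.11 and -2.38. In the authors' deposited table the log2 fold change of Mir143 for Vill against Alb was -2.87 with an adjusted p of 0.000593, the only member under 0.05 in any of the deposited comparisons. The authors' deposited tables had 0.209% of genes under 0.05 there, 0.0219% for chow Vill against ff, 0.0156% for Alb against ff and 0.0128% for HFD Vill against ff. Every Vill library was far below every Alb library. Nexn had 7.62, 12.4, 6.46 and 14.9 CPM in Vill, against 24.5, 15.8, 25.8 and 16.2 CPM in Alb, with a log2 fold change of -0.96 (SE 0.29, adjusted p = 0.515) in edgeR. Ppp1r14a had 37.9, 33.7, 35.1 and 29.4 CPM in Alb, all above the Vill values given before, with a log2 fold change of -0.70 (SE 0.22, adjusted p = 0.515). Cav1 had 127, 139, 153 and 116 CPM in Alb, also all above Vill, with a log2 fold change of -0.72 (SE 0.25, adjusted p = 0.544). Flna had 697, 799.8, 288 and 1059 CPM in Vill, against the Alb values above, with a log2 fold change of -1.05 (SE 0.39, adjusted p = 0.544). Cacna1c had 50.8, 31.9, 56.6 and 27.9 CPM in Alb and a log2 fold change of -0.84 (SE 0.32, adjusted p = 0.551). Kcnmb1 had 28.3, 17.5, 25.1 and 15.6 CPM in Alb and a log2 fold change of -1.07 (SE 0.41, adjusted p = 0.551). Vill library 4 overlapped the Alb range for Flna, Cacna1c and Kcnmb1. Myocd had 6.88, 6.60, 12.8 and 4.79 CPM in Alb, the lowest just above the highest Vill library, with a log2 fold change of -1.32 (SE 0.52, adjusted p = 0.551).

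Carmn and Mir145a, which lie beside Mir143 on its strand of chromosome 18, had estimates of the same sign. On that strand the deposited tables place the gap between Carmn, a long noncoding RNA gene of smooth muscle, and Mir143 at 366 bases, with Carmn upstream, and the gap between Mir143 and Mir145a, the gene of microRNA 145, at 1301 bases, with Mir145a downstream. Both microRNAs are known for high levels in smooth muscle. Carmn had 3.58, 5.44, 1.63 and 9.51 CPM in Vill, 38.2, 20.4, 14.4 and 12.3 CPM in Alb and 11.4, 12.2, 8.86 and 11.2 CPM in ff. Mir145a had 0.643, 1.53, 0.371 and 2.08 CPM in Vill, 10.7, 5.00, 4.87 and 3.10 CPM in Alb and 2.77, 3.54, 2.23 and 3.63 CPM in ff. In both genes Alb library 1 was far above all others and Vill library 3 was lowest. For Vill over Alb the log2 fold change was -2.03 for Carmn (SE 0.50, adjusted p = 0.46 by edgeR and 0.0163 by DESeq2) and -2.32 for Mir145a (SE 0.54, adjusted p = 0.46 by edgeR and 0.0058 by DESeq2). Libraries were made from poly-A RNA, so reads on the 63 bases of Mir143 come from longer transcripts and do not measure the mature microRNA.

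On HFD, Vill colons were set against ff colons at 18 weeks of age. Of the 33 members tested, 27 had lower and 6 higher estimates in Vill, with a median log2 fold change of -0.13 against -0.0038 over all 17715 genes, of which 50.7% lay below 0. No member changed at an adjusted p under 0.05 in edgeR, which called 0.00564% of all genes, and none had an unadjusted p under 0.05, against 3.45% of all genes. DESeq2 called 0 members and 0.0129% of all genes, limma-voom 0 members and 0.00564% of all genes, and no member had groups that did not overlap. Mir143 was left out of the test for low counts, with 21, 10, 3 and 0 reads in Vill and 5, 6, 12 and 1 reads in ff. The 0 reads of Vill library 4 allow up to 0.124 CPM, an upper limit from counting error alone. The direction rested on single libraries: the median was 0.11 without Vill library 4, with 22 of 34 estimates above 0, and 0.067 without the library labelled ff 1, with 24 of 34 above 0. The estimates take the labels as given, although the libraries labelled ff 1 and 3 had Pcca within the Vill range.

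The HFD libraries labelled ff 1 and 3 stood apart from the other HFD libraries. Beside their low Pcca, at 31.45 and 32.9 CPM, they differed in some genes of the small intestine and some of the colon epithelium. Slc10a2, the ileal bile acid transporter, had 4.91, 2.03, 5.20 and 1.45 CPM in the HFD Vill libraries 1 to 4 and 473, 5.20, 529 and 2.39 CPM in the HFD ff libraries, and the brush border disaccharidase Sis had 0.427, 0.877, 2.06 and 1.16 CPM in Vill and 62.9, 1.35, 77.9 and 0.947 CPM in ff. Both were high in those 2 libraries alone. The summed level of 12 genes of small intestine epithelium was 509, 474, 301 and 459 CPM in Vill and 1123, 321, 1403 and 516 CPM in ff, much of it from Slc10a2 in ff 1 and 3. Not every gene of that list followed: Fabp2 had 329, 264, 43.45 and 281 CPM in Vill and 316, 73.9, 489 and 347 CPM in ff. Of the colon epithelium list, Car1 had 1316, 527, 270.5 and 425 CPM in Vill and 6094, 492, 7031 and 760 CPM in ff. Aqp8 of the same list had 556, 135, 359 and 246.5 CPM in Vill and 4.84, 316.5, 38.6 and 244 CPM in ff. With the libraries labelled ff 1 and 3 left out, all 34 members were higher in Vill, with a median log2 fold change of 0.34 and 0 members at an unadjusted p under 0.05. On chow, Slc10a2 had 256, 3.41, 2.23 and 2.94 CPM in Vill, 4.60, 10.7, 26.6 and 2.48 CPM in Alb and 0.949, 221, 5.68 and 2.56 CPM in ff, and was high in Vill library 1 and ff library 2. These 2 libraries also had the lowest Pcca of their groups, at 26.4 CPM in Vill and 37.4 CPM in ff. The part of these differences between libraries, and of the section of colon taken, in the levels of the contractile genes was not tested beyond leaving libraries out.

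The 8 members with the smallest p on HFD were Itga7, Vcl, Pde5a, Dmd, Cacna1c, Mylk, Ppp1r14a and Actn1. Itga7 had 34.6, 37.8, 25.7 and 20.2 CPM in Vill and 69.2, 24.3, 73.5 and 30.4 CPM in ff, with a log2 fold change of -0.68 (SE 0.37, adjusted p = 0.932) by edgeR. Mylk had 553, 474, 244 and 116 CPM in Vill and 902, 226, 703 and 265 CPM in ff, with a log2 fold change of -0.54 (SE 0.56, adjusted p = 0.932). In both, the libraries labelled ff 1 and 3 were above the other 6, and without them the log2 fold change was 0.14 for Itga7 and 0.52 for Mylk. Cacna1c had 22.0, 16.6, 14.8 and 4.67 CPM in Vill and 38.7, 14.0, 21.3 and 11.6 CPM in ff, with a log2 fold change of -0.50 (SE 0.48, adjusted p = 0.932), and 0.21 without those libraries. Pde5a had 153, 121, 126 and 99.0 CPM in Vill and 207, 127, 173 and 119 CPM in ff, with a log2 fold change of -0.27 (SE 0.19, adjusted p = 0.932), and 0.062 without them. Both had their highest level in the library labelled ff 1. Vcl had 99.6, 63.3, 79.3 and 54.1 CPM in Vill and 59.5, 68.3, 72.4 and 56.4 CPM in ff, with a log2 fold change of 0.26 (SE 0.17, adjusted p = 0.932). Dmd had 32.9, 37.0, 31.0 and 22.3 CPM in Vill and 50.4, 34.1, 38.8 and 27.9 CPM in ff, with a log2 fold change of -0.24 (SE 0.18, adjusted p = 0.932). For these 2 genes the libraries of both groups were mixed in order. Ppp1r14a had 19.2, 20.1, 15.3 and 5.08 CPM in Vill and 28.7, 12.5, 24.1 and 14.9 CPM in ff, with a log2 fold change of -0.38 (SE 0.41, adjusted p = 0.932). Actn1 had 147, 145, 139 and 97.3 CPM in Vill and 143, 125, 107 and 134 CPM in ff, with a log2 fold change of 0.10 (SE 0.14, adjusted p = 0.943).

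The Vill effect was then compared between diets, as the HFD log2 fold change minus the chow one, in a fit of the 16 Vill and ff libraries. The difference was above 0 for 29 of 34 members and below 0 for 5, with a median of 0.34 against -0.013 over all 19516 genes, of which 48.1% lay above 0. No member differed between diets at an adjusted p under 0.05 in edgeR, DESeq2 or limma-voom, and none had an unadjusted p under 0.05, against 2.54% of all genes. Each of the 3 tools called 0% of all genes. The smallest p belonged to Actn1, at 0.39 (SE 0.19, adjusted p = 0.9999), followed by Mir143 at 2.11 (SE 1.16, adjusted p = 0.9999) and Vcl at 0.44 (SE 0.25, adjusted p = 0.9999). Next came Kcnmb1 at 0.86 (SE 0.63, adjusted p = 0.9999) and Itga7 at -0.66 (SE 0.49, adjusted p = 0.9999), then Synm at 0.81 (SE 0.80, adjusted p = 0.9999), Des at 0.75 (SE 0.74, adjusted p = 0.9999) and Myocd at 0.88 (SE 0.90, adjusted p = 0.9999). The interval for Des ran from -0.82 to 2.32, so neither no difference nor a several-fold one lay outside it. Without HFD Vill library 1 the median was 0.065, without HFD Vill library 2 it was 0.18, without HFD Vill library 4 it was 0.58 and without chow Vill library 3 it was 0.072. Without chow Vill library 4 it was 0.66, without chow ff library 2 it was 0.18, without HFD ff library 2 it was 0.17 and without the library labelled HFD ff 1 it was 0.51. Without the libraries labelled HFD ff 1 and 3 together it was 0.87, with all 34 estimates above 0.

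How the members stood to each other was described as reads per 100 reads of Myh11 in the same library, a description with no test. Acta2 stayed between 49.2 and 78.4 in all 20 libraries. Des had 76.2, 67.8, 73.8 and 76.3 in chow Vill, 46.7, 45.8, 66.1 and 73.5 in Alb and 77.1, 72.7, 71.4 and 78.9 in ff, so that Alb libraries 1 and 2 were low. On HFD Des had 74.3, 63.9, 58.1 and 84.0 in Vill and 39.0, 67.8, 42.9 and 77.2 in ff, and the libraries labelled ff 1 and 3 were low. Cnn1 showed the same 4 low libraries, with 44.1, 44.4, 53.4 and 50.6 in chow Vill, 33.8, 25.6, 41.0 and 52.1 in Alb and 50.5, 41.8, 48.7 and 51.3 in ff, and with 49.5, 45.3, 41.2 and 52.5 in HFD Vill and 25.7, 45.9, 31.0 and 57.8 in HFD ff. Mylk had 40.0, 39.7, 36.5 and 59.4 in HFD Vill and 55.3, 40.8, 52.2 and 43.3 in HFD ff, where the libraries labelled ff 1 and 3 were above the other ff libraries and Vill library 4 was highest. Krt5, a keratin of squamous epithelium, had 0.351, 40.6, 0.394 and 0 CPM in the chow Alb libraries, with its high value in library 2, and its part in the low Des and Cnn1 of that library was not tested.

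Members that varied little in CPM have high ratios wherever Myh11 was low, so the ratios of Actn1 and Vcl restate their narrow range and still move with the muscle share. Actn1 had 13.7, 14.5, 48.6 and 10.1 reads per 100 Myh11 reads in chow Vill, 6.08, 10.6, 6.64 and 14.2 in Alb and 14.8, 8.45, 14.3 and 16.5 in ff, and 10.7, 12.1, 20.7 and 49.8 in HFD Vill and 8.77, 22.5, 7.98 and 21.9 in HFD ff. Vcl had 8.64, 7.91, 27.7 and 6.43 in chow Vill, 3.74, 5.38, 4.25 and 7.12 in Alb and 7.24, 5.37, 8.63 and 8.36 in ff, and 7.21, 5.30, 11.9 and 27.7 in HFD Vill and 3.65, 12.3, 5.38 and 9.21 in HFD ff. In both genes chow Vill library 3 and HFD Vill library 4 stood far above the rest. Actn1, Vcl and Dmd are known from many cell types besides muscle. Lmod1 had 4.44, 4.59, 5.07 and 4.74 in chow Vill, 3.77, 3.89, 3.48 and 4.12 in Alb and 4.92, 4.66, 4.79 and 5.12 in ff, with all Alb libraries below all other chow libraries. It is named here after its values were seen and was not tested on this scale.

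**Figure D5:**
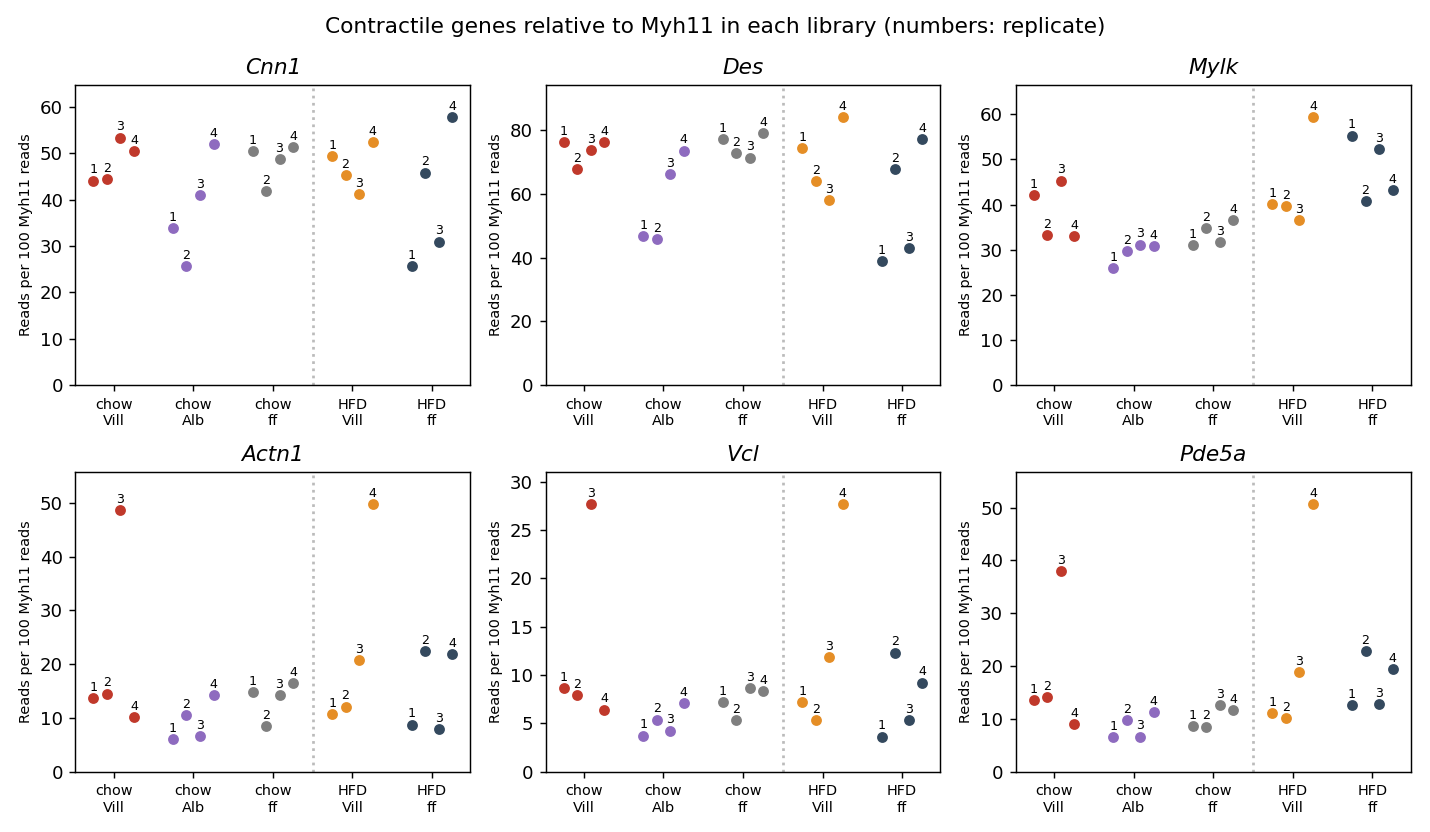
Reads of 6 contractile genes per 100 reads of Myh11 in the same library (y axes, from 0), by group (x axis), with replicate numbers. Cnn1 and Des are low in chow Alb libraries 1 and 2 and in the HFD libraries labelled ff 1 and 3, and Actn1, Vcl and Pde5a are high in chow Vill library 3 and HFD Vill library 4.

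Further genes of smooth muscle that are not among the 34 were measured from lists of signalling, cytoskeleton and transcription control. No gene of these lists was called in any comparison by edgeR. For chow Vill over ff, 23 of 25 signalling genes had lower estimates and 2 higher, with a median log2 fold change of -0.28 and 0 genes at an unadjusted p under 0.05. All 29 tested cytoskeleton genes had lower estimates, with a median of -0.34 and 1 gene, Cavin3, at that p, against 1.1% of all genes lower at that p. For Vill over Alb, 8 of 25 signalling genes and 14 of 29 cytoskeleton genes had an unadjusted p under 0.05, all lower in Vill, with medians of -0.85 and -0.69, against 4.89% of all genes lower at that p. The counts were 4 and 3 without Alb library 3, 4 and 4 without Alb library 1, 5 and 6 without Vill library 3, 5 and 7 without Vill library 2, 6 and 8 without Vill library 1 and 13 and 19 without Vill library 4. Without Alb library 4 the signalling count was 14. With the replicate number as a block the counts were 6 and 7, as they were with only these 2 groups in the fit. Chrm2, the main muscarinic receptor of gut muscle by number, averaged 16.2 ± 9.58 CPM in Vill and 36.9 ± 2.56 CPM in Alb, a log2 fold change of -1.15 (SE 0.35, adjusted p = 0.515 by edgeR). Abcc9, a subunit of an ATP-sensitive potassium channel, averaged 22.4 ± 11.1 CPM in Vill and 47.6 ± 7.08 CPM in Alb, with a log2 fold change of -1.04 (SE 0.35, adjusted p = 0.5375). For both, every Vill library lay below every Alb library.

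The transcription control list held 13 genes, among them Carmn and Mir145a, the neighbours of Mir143 described above. Its counts are therefore not separate from that locus, since both had an unadjusted p under 0.05 in edgeR for Vill over Alb. Of the 13 genes, 12 were tested. For chow Vill over ff, 9 had lower and 3 higher estimates, with a median log2 fold change of -0.29, and for Vill over Alb 10 had lower and 2 higher, with a median of -0.33. At an unadjusted p under 0.05 in edgeR stood 3 of the 12 for Vill over ff and 4 for Vill over Alb, against 1.1% and 4.89% of all genes lower at that p. Foxf1, a forkhead factor of gut mesenchyme and the gene of the list with the smallest p in both, averaged 14 ± 2.32 CPM in chow Vill, 24.9 ± 4.88 CPM in Alb and 20.4 ± 2.51 CPM in ff (SD, n = 4 each). Its log2 fold change was -0.56 for Vill over ff (SE 0.18, adjusted p = 0.9999 by edgeR), where every Vill library lay below every ff library, and -0.81 for Vill over Alb (SE 0.18, adjusted p = 0.446 by edgeR and 0.0361 by DESeq2). Gata6, a zinc finger factor, had 51.6, 44.5, 65.3 and 42.6 CPM in chow Vill, 39.0, 49.9, 34.3 and 49.99 CPM in Alb and 43.5, 46.9, 54.9 and 46.6 CPM in ff, and Mrtfb, a coactivator related to myocardin, 49.3, 69.3, 105 and 51.9 CPM in Vill, 68.0, 91.2, 59.2 and 69.7 CPM in Alb and 57.6, 48.1, 78.7 and 60.3 CPM in ff. Both were highest in Vill library 3, and both are named after their values were seen. Srf, the factor that carries myocardin to DNA, had 74.9, 61.9, 50.5 and 64.1 CPM in chow Vill, 72.2, 54.8, 91.2 and 74.4 CPM in Alb and 63.2, 91.7, 55.6 and 72.8 CPM in ff, within a much narrower range than Myocd. On HFD the same list had 6 higher and 6 lower estimates in Vill, with a median log2 fold change of 0.051 and 0 genes at an unadjusted p under 0.05. On HFD 16 of 24 signalling genes and 21 of 29 cytoskeleton genes had lower estimates in Vill, again with 0 genes at that p.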

How the data were processed

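RNA of colon sections, 20 libraries in all, was sequenced after poly-A selection. The authors' deposited tables hold raw read counts per gene and library, and per the file headers also the gene length in bases, which was used for levels per kilobase. Per the submitters' processing notes, the genome was mm39 and the tools included featureCounts 1.5.0-p3, edgeR 3.22.5, HISAT2 2.0.5 and DESeq2 1.20.0. The notes state no role for each, and the strand setting is not given in the sources used here. The authors' deposited log2 fold changes and p-values serve here only for a side-by-side view, and 28 further columns of per-sample values were not used.

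The quasi-likelihood test of edgeR 4.0.16 (R 4.3.3) was run on the counts after TMM scaling and filtering with filterByExpr. All 12 chow libraries entered 1 fit, the 8 HFD libraries entered another, and the 16 Vill and ff libraries were fitted for the contrast of diets. The Benjamini-Hochberg adjustment ran over every gene of a fit, with a call at an adjusted p under 0.05. DESeq2 1.42.0, limma-voom (limma 3.58.1), other scalings and filters, a replicate block and fits without single libraries were alternatives. CPM were computed on the total counted reads of a library, with no TMM factor. The SD of log2 values used CPM plus 0.5. The fits were tested on simulated data.

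The members and the gene lists were chosen with earlier results of these data known. All members are named. Full statistics are given for the 8 members with the smallest p of each comparison, and the other lists are described by counts. The labels do not say that the animals of a group came from separate cages or litters, so p-values measure the spread between these samples. No 2 libraries of the same group had counts that agreed within sampling noise. Promoters came from the RefSeq table of build GRCm38.p6, and gene coordinates are those of the deposited tables. Depth was 16881567 to 40385785 counted reads per library.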

Additional observations from a re-analysis of the deposited data

Results flagged for a closer look

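A library was singled out when its gap to the nearest of the other 3 of its group exceeded Dixon's 95% critical share of the range of the group, which chance gives in about 1 in 20 groups. Of 175 groups of 4 values examined, 4 met this (2.29%). In chow ff library 2, Tpm1 had 1309 CPM, against 757 to 832 CPM in the other ff libraries. Smtn had 257 CPM in the same library, against 165 to 180.2 CPM, and Itga7 had 55 CPM, against 34.1 to 36.8 CPM. The fourth was Pde5a in chow Vill library 3, at 107 CPM, against 145 to 146 CPM in the other Vill libraries.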

How the results depend on the processing

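No member was called in any comparison under any alternative, with 1 exception: DESeq2 called 1 member, Mir143, for chow Vill against Alb (adjusted p = 3.55e-05, against 0.246 in edgeR). Leaving out 1 library at a time moved the members' median log2 fold change between -0.86 and -0.20 for chow Vill over ff, between 0.14 and 0.52 for Alb over ff, between -1.24 and -0.55 for Vill over Alb, between -0.42 and 0.11 for HFD Vill over ff, and between 0.065 and 0.66 for the difference between diets. Without the libraries labelled HFD ff 1 and 3 together, HFD Vill over ff turned positive for Itga7 (0.14), Pde5a (0.062), Dmd (0.031), Cacna1c (0.21), Mylk (0.52) and Ppp1r14a (0.14), and the difference between diets turned positive for Itga7 (0.15), with a median of 0.87. The cause was not tested beyond leaving these libraries out. Without the 3 members with most reads, the share in chow ff colons was 0.765%, since fewer genes were summed. Scaling changed no direction of a median. The counts of further smooth muscle genes without single libraries were an alternative chosen after seeing the data.

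Deviations of same-numbered libraries correlated above 0.1 in 4 of 12 chow pairs (r between -0.66 and 0.57) and in 2 of 4 HFD pairs. Libraries with different numbers did so in 16 of 36 chow pairs and in 5 of 12 HFD pairs. So few pairs cannot settle whether equal replicate numbers paired the samples. With the replicate block, no member was called, and the medians were -0.52 for chow Vill over ff, 0.35 for Alb over ff, -0.92 for Vill over Alb, -0.25 for HFD Vill over ff and 0.37 for the difference between diets.

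Depth limits Mir143 most, with 0 to 134 reads per library. Myocd had 12 to 128 reads on HFD and an SE of 0.65. The median SE of the members was 0.41 (log2) for chow Vill over ff and 0.47 on HFD, against 0.26 and 0.23 over all genes.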
